A study of Mus musculus with 5 samples.

Results

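The surface protein panel of the MC38 tumor reactions consisted of 122 barcoded antibodies, which were all rows of the deposited feature lists that were neither genes nor hashtags. Of these, 9 were isotype controls, antibodies with no target on mouse cells, and 113 were directed to a named surface protein. Each of the 2 MC38 reactions listed 33828 features, of which 33696 were genes, 10 were hashtags, and 122 were panel antibodies. For 108 antibodies the target was encoded by at least 1 gene of the files, and together the panel covered 110 target genes.

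In this type of assay, an antibody carries a short DNA tag that is captured in the same droplet as the RNA of the cell, so that counts of unique molecular identifiers (UMIs) report both surface protein and RNA for each cell barcode. An antibody binds its target, but it can also bind Fc receptors or dead cells, and isotype controls of the same antibody classes are included to read this background. In tumors, such panels are used to separate lymphocytes, which carry T cell receptor components and the coreceptors CD4 or CD8, from macrophages and dendritic cells (DCs), which carry integrins such as CD11b and CD11c and class II MHC, and from stromal and tumor cells, which lack most of these proteins.

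MC38 is a mouse colon carcinoma line, grown here subcutaneously in male C57BL/6J mice of 8 to 10 weeks. The mice received an isotype antibody or CPI, that is anti-CTLA4 (24H2) with anti–PD-1 (17D2), on days 3, 6, and 9. The JAK1 inhibitor ABT-317 at 20 mg/kg, or vehicle, was given once on day 12, and tumors were collected on day 15. The methods for these cells count days from implantation, whereas another description of the MC38 mice starts the count when tumors had reached a minimal size, so the tumor age at treatment is not certain. All 4 groups, called here Isotype, CPI, CPI + ABT-317, and Isotype + ABT-317, therefore carried the same tumor and differed only in antibody and inhibitor. Live CD45+ and CD45- cells were sorted, labeled with 1 hashtag antibody per treatment and reaction, and mixed at equal numbers, which sets the share of immune cells. Per the methods, hashtags were to be represented equally in a reaction and to identify samples as well as groups. The deposited key gives no hashtag for a single mouse. How the tumors of a group were divided over the reactions is not given in the sources used here. The unit of comparison is therefore the sum over a treatment in a reaction, and p-values measure only the spread between 2 reactions, which may be technical. The edgeR fits below share that spread over antibodies or genes, so a p-value does not rest on the 2 reactions of 1 antibody alone.

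Each antibody is read through a tag of 15 bases. Over all 7381 pairs of panel tags the median number of differing bases was 11 and the lowest was 4, which 3 pairs shared. The tags of the antibodies on which the results below turn, and of 1 isotype control, are printed from the deposited antibody reference 5′ to 3′, with the bases that differ from the closest other tag of the panel in capitals.
I-A/I-E (class II MHC): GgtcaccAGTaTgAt
CD11b: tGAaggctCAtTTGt
CD11c: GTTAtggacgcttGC
CD90.2: cCgAtcagCCGTttA
CD8b: tTcCCTctAtgGagc
CD31: GctGtAgTaTCatgT
CD71: ACCGaccagtaGACA
CD38: CgTAtCcGTCtccta
Isotype control RTK4530: GAttcTtGAcGacct
The closest tag to that of I-A/I-E, with 6 differing bases, belonged to an antibody to FceRIa, an IgE receptor chain. The closest to CD11b belonged to the isotype control RTK4174, with 7 differing bases, and the closest to CD90.2 belonged to CD5, also with 7. CD71 stood farthest from its neighbor among the tags shown, with 8 differing bases from I-A/I-E.

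Reactions 1 and 2 held 37774 and 27582 barcodes, with 239074123 and 180135431 panel UMIs in all. At least 200 genes and under 10% mitochondrial UMIs were found in 33762 and 23332 barcodes, and a leading hashtag was found in 19660 and 15905 of these. The median panel count per passing barcode was 5694 and 6136.5 UMIs, against 8781.5 and 9998 gene UMIs. The reactions shared 1416 barcode sequences, of which 1068 passed in both. All 113 antibodies passed the filter on low sums.

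Cell classes were set from marker RNA alone, so the antibodies had no part in them. The classes used were macrophage-like (5458 and 5228 barcodes in reactions 1 and 2), DC-like (29 and 27), T-like (264 and 272), fibroblast-like (981 and 708), and endothelial-like (59 and 46). A sixth class, called list-negative, met none of the marker lists (8242 and 7078 barcodes). No passing barcode had 3 or more of the keratin and epithelial genes written down for MC38 tumor cells, so no class was named tumor-like. List-negative barcodes were deep, with a median of 19523.5 and 25140 gene UMIs, and carried almost no RNA for the pan-leukocyte protein CD45 (Ptprc at 2.25 and 0.941 CPM, UMIs of a gene relative to all gene UMIs of the sum).

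Treatments were spread unevenly over classes. Macrophage-like barcodes came from Isotype tumors in 76.6% and 79.3%, whereas T-like, fibroblast-like, and endothelial-like barcodes came from CPI tumors in 84.8% to 95.6%. List-negative barcodes came from CPI in 3.02% and 1.71%. Of the T-like barcodes, 2 and 1 carried the hashtag of CPI + ABT-317. The study, by contrast, reports gene expression differences between tumor CD8 T cells of CPI and CPI + ABT-317. Why so few such barcodes were found here was not tested. Every treatment comparison rests on the deposited hashtag key, which was not checked against another record. Class and treatment can thus be told apart only in part, and calls lost when CPI barcodes are used alone are named where they occur. DC-like barcodes from CPI were too few for that comparison. With CPI barcodes alone, the mean of the other classes thus leaves out DC-like sums, and each class is compared with a different set than in the main fit.

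The level of an antibody is given as a multiple of the isotype mean, that is its UMIs summed over the barcodes of a class divided by the mean of the 9 isotype sums in the same barcodes. Isotype controls gave 11.3 to 17.9 UMIs per barcode each in the 6 classes, and the level of a single control in a class ran from 0.417 (RTK4174 in DC-like) to 1.56 (HTK888 in macrophage-like) times their common mean. Because the amount of each antibody in a commercial cocktail is set separately, levels of different antibodies do not rank their targets.

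Most of the panel varied little between cell classes. The ratio of the highest to the lowest class was 1.24 in the median antibody, against 1.12 in the median isotype control, whose ratios ran from 1.06 to 1.26. It was under 1.5 for 70 of 113 antibodies, at least 2 for 33, and at least 4 for 11. Of the 45 antibodies whose mean level was at least 4 times the isotype mean, 35 also had a ratio under 1.5, so a high level over isotype controls did not by itself mark a class. CXCR3, a chemokine receptor of activated T cells, sat at 21.4 to 26.8 times the isotype mean in every class, and CD134, a costimulatory receptor of T cells, at 20.2 to 23.4. CD304 (neuropilin-1) sat at 17.1 to 18.9.

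**Figure D1:**
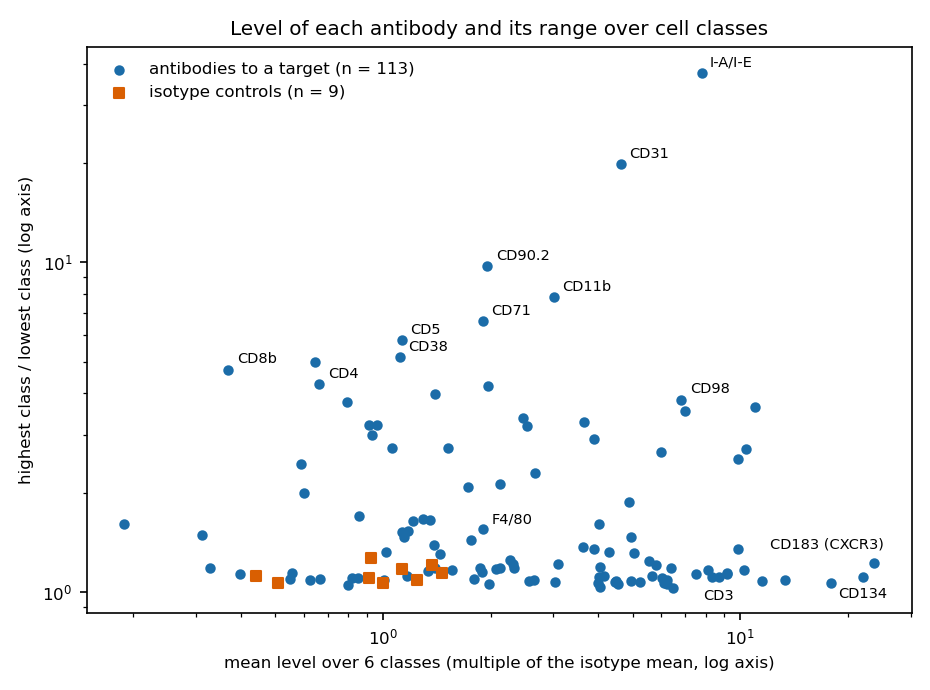
Each point is 1 antibody, with its mean level over the 6 classes (multiple of the isotype mean, log axis) on the x axis and the ratio of its highest to its lowest class (log axis) on the y axis, with circles for 113 antibodies to a target and squares for 9 isotype controls. Most circles lie near the bottom at every level, 33 have a ratio of at least 2, and I-A/I-E, CD31, and CD90.2 have the highest ratios.

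Each class was compared with the mean of the other classes by edgeR's quasi-likelihood test with Benjamini-Hochberg adjustment over 113 antibodies, with reaction as a block and isotype totals as library sizes, and a call needed an adjusted p under 0.05 and at least a 2-fold difference. All class values below are from this fit. Between 3 and 6 antibodies were called higher in each class and between 1 and 4 were called lower. With UMIs per barcode as the size, T-like barcodes gave 5 higher and 5 lower, endothelial-like 8 and 0, and list-negative 2 and 7.

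**Figure D2:**
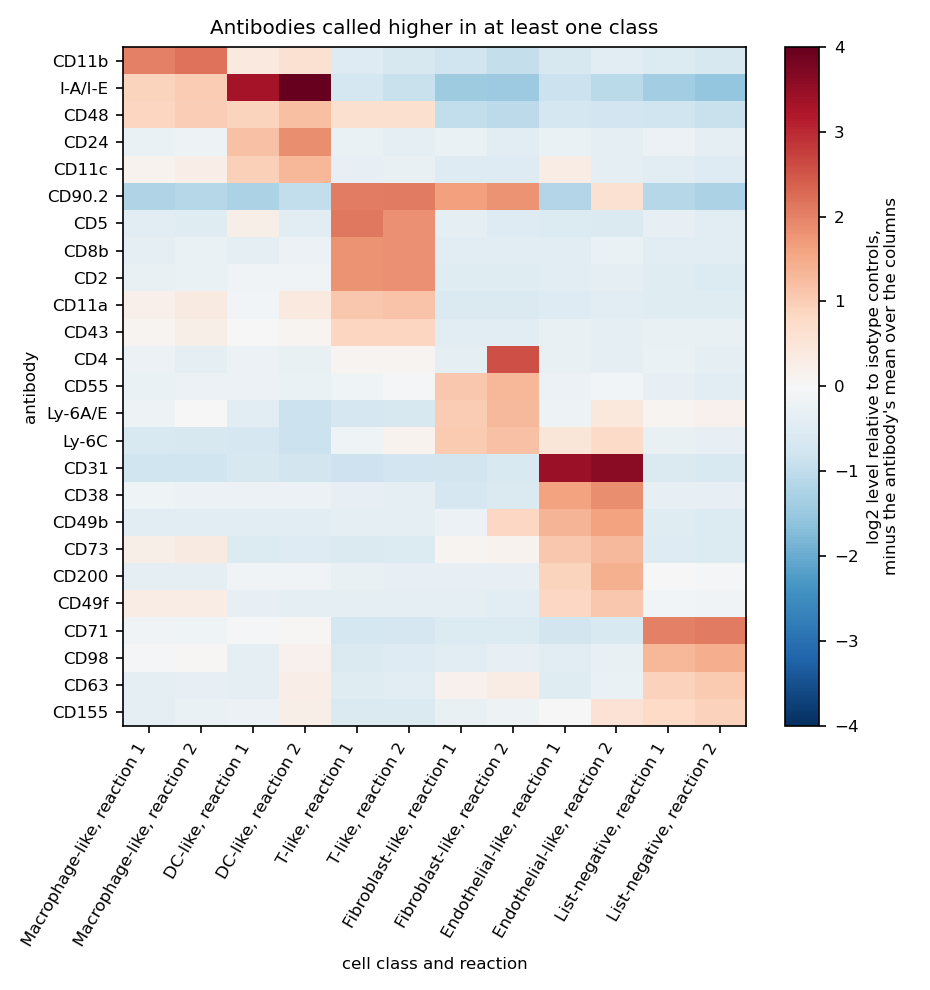
Rows are the antibodies called higher in at least 1 class and columns are the 6 classes in reactions 1 and 2, with color for the log2 level relative to the isotype mean, minus the antibody's mean over the columns. Both reactions of a class look alike for most rows, with CD31 in endothelial-like and I-A/I-E in DC-like sums the strongest, whereas CD4 is high in fibroblast-like reaction 2 only.

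Macrophage-like barcodes stood out by CD11b, class II MHC, and CD48. CD11b, the alpha chain of the complement receptor and integrin Mac-1, was at 8.76 and 9.92 times the isotype mean. It was at 1.12 to 3.34 in the other classes of this fit, and no sum of these reached it. Neutrophil-like barcodes, too few for this fit, were as high when all hashtags were used (9.15 and 11.3, given below). The macrophage-like log2 difference of CD11b was 2.51 (SE 0.074, adjusted p = 6.66e-07). I-A/I-E, which in C57BL/6 mice reads class II MHC I-A because these mice make no I-E alpha chain, was at 4.99 and 5.43, above all classes other than DC-like. Its log2 difference was 1.13 (adjusted p = 0.0013). With CPI barcodes alone it was 2.76, but there the other classes leave out DC-like, whose mean level in the main fit was 36.6. These 2 values are thus not differences from the same set of classes. CD48, a leukocyte adhesion protein that binds CD2 and 2B4, was at 2.99 and 3.28 with a log2 difference of 1.11 (SE 0.067, adjusted p = 1.19e-05), and it was also high in DC-like and T-like sums. These 3 antibodies were 2.65% of those tested, and with fewer than 2500 genes per barcode I-A/I-E (0.998) and CD48 (0.979) lay just under 2-fold. CD90.2 was the 1 antibody called lower (0.885%), at 0.517 and 0.539 (log2 difference −1.45). With all barcodes whatever their hashtag, 0 were called lower.

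Of the 14 myeloid antibodies, CD11b alone was called in macrophage-like barcodes, and the median log2 difference of the list was −0.01, against −0.02 over all 113. F4/80, the classical mouse macrophage antigen, was at 2.50 and 2.58 against 1.63 to 1.95 elsewhere, a log2 difference of 0.52 (SE 0.027) that passed the test (adjusted p = 8.77e-06) but not the fold. CD115, the receptor for colony stimulating factor 1, was at 0.803 to 0.931 in every class, under the isotype mean. Its RNA, Csf1r, was at 398 and 391 CPM in macrophage-like sums and at no more than 55.5 CPM in other classes. Csf1r is on the macrophage list, so the gate set part of this RNA difference. The antibody did not follow the RNA. Ly-6G, a neutrophil antigen, was at 1.90 to 2.04 in all 6 classes.

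DC-like barcodes, a merger of 3 dendritic cell lists that each had under 20 barcodes, carried the highest class II MHC of any class. I-A/I-E was at 27.3 and 45.9 times the isotype mean, 22.5-fold above the mean of the other classes (log2 4.49, SE 0.14, adjusted p = 9.73e-07). One barcode held 45.5% of the I-A/I-E UMIs of reaction 2, and without the 1% of barcodes with most panel UMIs the log2 difference was 4.24. CD24, a glycosylphosphatidylinositol-anchored protein of cDC1, was at 1.54 and 2.47 against 0.503 to 0.59 elsewhere (log2 1.86, adjusted p = 7.53e-05), and 1 barcode held 47.0% of its UMIs in reaction 2. CD11c, an integrin alpha chain typical of dendritic cells, was at 4.45 and 5.78 (log2 1.38, adjusted p = 0.000506), and CD48 was at 3.04 and 3.76 (log2 1.25). These 4 antibodies were 3.54% of those tested, and CD90.2 was again the only one called lower (0.885%). CD86, a costimulatory ligand for CD28 and CTLA4, was at 3.12 and 3.80 against 1.62 to 2.30 elsewhere, with a log2 difference of 0.91 (SE 0.051, adjusted p = 1.8e-05), below 2-fold. One barcode held 39.4% of the CD86 UMIs and 31.1% of the CD11c UMIs of reaction 2, and without the top 1% of barcodes the log2 differences were 0.69 and 1.28.

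In T-like barcodes, 4 of 15 T cell receptor and coreceptor antibodies were called higher, and the median log2 difference of the list was 0.06, against 0.00 over the panel. CD90.2 (Thy-1), a protein of T cells and of many fibroblasts, was at 4.99 and 5.08 times the isotype mean (log2 2.46, SE 0.27, adjusted p = 0.000251), and the log2 difference was 1.38 with CPI barcodes alone. CD5, an inhibitory scavenger receptor of T cells, was at 3.73 and 3.11 against 0.582 to 1.02 elsewhere (log2 2.36, SE 0.091, adjusted p = 1.03e-06). CD8b, the beta chain of the class I MHC coreceptor, was at 1.03 and 1.07 against 0.219 to 0.256 (log2 2.17, SE 0.035, adjusted p = 4.6e-09), and CD2, an adhesion receptor for CD48, was at 1.81 and 1.85 against 0.358 to 0.476 (log2 2.17, SE 0.026, adjusted p = 1.27e-09). In all 4 the T-like sums lay above every sum of the other classes. The other calls were CD11a, the alpha chain of LFA-1 (1.74 and 1.84, log2 1.32), and the sialoglycoprotein CD43 (1.02 and 1.01, log2 1.03), which made 5.31% of the panel higher. CD29, the integrin beta 1 chain, was lower (1.67 and 1.76, log2 −1.17, 0.885% of the panel). With all barcodes whatever their hashtag, 0 were called lower.

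Several antibodies that define T cells by flow cytometry separated T-like barcodes by a small fold or not at all. CD3 was at 8.76 and 8.90 times the isotype mean in T-like sums and at 7.73 to 8.97 in the other classes, and the ranges overlapped. CD4 was at 0.562 and 0.561, below the isotype mean in absolute level, and CD8a was at 1.83 and 1.82 against 1.09 to 1.31 (log2 0.62, SE 0.03, adjusted p = 2.98e-06, below 2-fold). PD-1, the inhibitory receptor that the CPI antibody 17D2 binds, was at 8.07 and 7.91 in T-like sums and at 6.82 to 7.81 elsewhere. Whether the therapeutic antibody affected staining by the panel's PD-1 antibody was not tested.

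Within T-like barcodes, the coreceptor antibodies moved with the coreceptor RNA. In the 116 and 130 barcodes with Cd8a or Cd8b1 RNA and no Cd4 RNA, CD8b was at 1.43 and 1.42 and CD8a at 2.15 and 2.11. In the 22 and 25 barcodes with Cd4 RNA only, CD8b was at 0.457 and 0.263, CD4 at 0.875 and 1.08, and CD5 at 6.99 and 5.30. The barcodes with neither RNA (120 and 110) lay between these for CD8b, at 0.751 and 0.792. Foxp3, the transcription factor of regulatory T cells, was detected in 14 and 11 T-like barcodes. There GITR was at 3.12 and 3.15, ICOS at 2.58 and 2.72, and the IL-2 receptor chain CD25 at 0.692 and 0.556. In the same barcodes CD4 was at 0.409 and 0.716, CD8b at 0.888 and 1.04, and CD8a at 1.80 and 1.47. CD4 thus lay below, and CD8b above, the barcodes with Cd4 RNA only, so the coreceptor antibodies did not mark the Foxp3 barcodes as CD4 cells. Because of their size, no test was run on these subsets.

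Ly-6A/E, CD55, CD90.2, Ly-6C, and CD4 were called higher in fibroblast-like barcodes. Ly-6A/E (Sca-1), a marker of mesenchymal progenitors and of interferon-exposed cells, was at 12.8 and 15.7 times the isotype mean against 3.5 to 8.51 elsewhere (log2 1.39, adjusted p = 0.000183). CD55, which limits complement on the cell surface, was at 1.81 and 2.13 against 0.642 to 0.812 (log2 1.44, SE 0.05, adjusted p = 2.11e-06). CD90.2 was at 3.75 and 4.14 (log2 2.02), next to T-like levels, but 95.3% and 93.8% of fibroblast-like barcodes were from CPI tumors. With CPI barcodes alone in every class other than DC-like, which was left out, the log2 difference was 0.88 (adjusted p = 0.0807) and the call was lost. Ly-6C was at 20.3 and 21.9 (log2 1.32, adjusted p = 1.97e-05), of which 1 barcode held 29.2% and 26.1% of UMIs in the 2 reactions, and the log2 difference was 0.78 without the top 1% of barcodes.

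CD4 was also called higher in fibroblast-like barcodes (log2 1.81, adjusted p = 0.0257), but its level was 0.396 in reaction 1 and 3.1 in reaction 2, where 1 barcode held 87.5% of the UMIs. Without the top 1% of barcodes the difference was −0.11, and with CPI barcodes alone it was 1.82 (adjusted p = 0.0567) and the call was lost. These 5 antibodies were 4.42% of the panel. Called lower (2.65%) were CD11b (log2 −1.05), I-A/I-E (−1.74), and CD48 (−1.23). These were also higher in macrophage-like barcodes, whose values enter the mean of the other classes used here. With TMM scaling, without the top 1% of barcodes, and with all barcodes whatever their hashtag, 2 were called lower.

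Endothelial-like barcodes stood out by CD31, CD38, and CD49b. CD31 (PECAM-1), the adhesion molecule of endothelial junctions, was at 20.7 and 23.2 times the isotype mean against 1.09 to 1.27 in every other class, an 18.7-fold difference (log2 4.23, SE 0.038, adjusted p = 1.78e-10). CD38, an enzyme that consumes NAD, was at 2.81 and 3.33 against 0.575 to 0.811 (log2 2.09, SE 0.05). Endothelial-like barcodes came from CPI tumors in 91.5% and 84.8%, and macrophage-like CD38 was itself higher in CPI, as given below. The CD38 difference between these classes thus mixes class and treatment. CD49b, the integrin alpha 2 chain, was at 3.04 and 3.62 (log2 1.77, adjusted p = 0.000245). The fibroblast-like level of CD49b in reaction 2, 2.10, came to 51.4% from 1 barcode. CD73, which makes adenosine, was at 4.70 and 5.48 (log2 1.43), the immune regulator CD200 at 6.6 and 9.63 (log2 1.40), and CD49f, the integrin alpha 6 chain, at 16.3 and 19.5 (log2 1.15, adjusted p = 3.62e-06). These 6 antibodies were 5.31% of the panel, and I-A/I-E was the 1 called lower (log2 −1.16, 0.885%). That call ended with UMIs per barcode, with all barcodes whatever their hashtag, with 1 more marker in the gate, and with 2-component hashtag calls, and its gene H2-Aa was at 674 and 51.0 CPM in the 2 reactions.

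List-negative barcodes stood out by CD71, CD98, CD63, and CD155. CD71, the transferrin receptor, which takes up iron, was at 5.78 and 6.05 times the isotype mean against 0.865 to 1.49 in the other classes (log2 2.45, SE 0.03, adjusted p = 1.5e-09, 5.48-fold). CD98, the heavy chain of amino acid transporters, was at 15.2 and 16.5 against 4.02 to 6.77 (log2 1.67, SE 0.071, adjusted p = 2.86e-06). The tetraspanin CD63 was at 18.3 and 20.0 (log2 1.18), and CD155, the poliovirus receptor and ligand of TIGIT and CD226, at 1.74 and 1.89 (log2 1.04, adjusted p = 0.000163). In all 4 (3.54%), both list-negative sums lay above every other sum. With CPI barcodes alone the log2 differences of CD63 (0.825) and CD155 (0.996) were below 2-fold. CD45 at 1.02 and 0.987 lay no lower than in fibroblast-like or endothelial-like sums.

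Called lower in list-negative barcodes (3.54%) were I-A/I-E (log2 −1.77), CD90.2 (−1.47), CD54 (−1.21), and CD48 (−1.02). With CPI barcodes alone these were 0.56, 0.51, −0.88, and −0.11 in the same order, so that the first 2 turned positive and none of the 4 was called. DC-like sums, with a mean I-A/I-E level of 36.6 in the main fit, are absent from the other classes in that fit. The part of their absence in these changes was not tested. With fewer than 2500 genes, which left 625 and 319 list-negative barcodes, none was called lower and 3 were called higher. The list-negative sums come mostly from tumors without CPI and the fibroblast-like and endothelial-like sums mostly from CPI tumors, so class and treatment cannot be told apart for these 4.

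The pan-leukocyte antibodies barely divided immune from other classes. CD45.2, the allele carried by C57BL/6 mice, was at 5.33 and 5.52 in macrophage-like and at 3.27 to 4.24 in all other classes, including fibroblast-like (3.49 and 3.27) and list-negative (3.74 and 3.43). CD45 was at 1.31 and 1.46 in macrophage-like sums and 0.933 and 0.909 in fibroblast-like sums. The RNA of the same gene, Ptprc, was at 324 and 287 CPM in macrophage-like and 608 and 596 CPM in T-like sums, far above list-negative sums. Cells had been stained with an antibody to CD45 for the sort before the panel was counted, and whether this affected the 2 panel antibodies was not tested. The B cell antigen CD45R/B220 was at 0.52 to 0.61 in every class and the NK cell receptor NK-1.1 at 1.65 to 1.89. Neither a B-like nor an NK-like class reached 20 barcodes in a reaction, so these antibodies had no class in which to be read.

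Treatments were compared within macrophage-like and within list-negative barcodes, since other classes had too few barcodes outside CPI. Each contrast was fitted over all 4 treatments with reaction as a block by edgeR's quasi-likelihood test, with Benjamini-Hochberg adjustment over 113 antibodies and no minimum fold. CPI minus Isotype and CPI + ABT-317 minus CPI share the CPI sums, so that 1 unusual CPI sum would enter both with opposite sign, and their values are set side by side only. The macrophage-like sums of reactions 1 and 2 held 4182 and 4146 barcodes for Isotype. They held 420 and 314 for CPI. With ABT-317 they held 421 and 407 after CPI, and 435 and 361 after isotype antibody.

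In macrophage-like barcodes, 24 of 113 antibodies (21.2%) differed between CPI and Isotype, 14 higher and 10 lower. Between CPI + ABT-317 and CPI, 31 (27.4%) differed, 10 higher and 21 lower, and between Isotype + ABT-317 and Isotype, 9 (7.96%) differed, all lower. The median log2 difference over all antibodies was 0.01, −0.04, and −0.01 in the 3 contrasts. At an unadjusted p under 0.05, 38, 52, and 19 antibodies differed, and the counts called changed with the scaling, with 90 in the second contrast (82 higher and 8 lower) and 0 in the third with UMIs per barcode. Without the block the counts were 13 (10 higher), 14 (1 higher), and 1, so that of the 10 higher calls in the second contrast CXCR3 alone remained.

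Class II MHC separated the treatments in macrophage-like barcodes. I-A/I-E in macrophage-like sums was at 4.75 and 5.30 times the isotype mean in Isotype, 10.1 and 10.4 in CPI, 4.19 and 4.39 in CPI + ABT-317, and 3.39 and 4.01 in Isotype + ABT-317. Both CPI sums lay above all others, and both Isotype + ABT-317 sums lay below all others. CPI raised it by 1.03 on the log2 scale (SE 0.053, adjusted p = 0.000587), CPI + ABT-317 was lower than CPI by 1.26 (log2 −1.26, SE 0.054, adjusted p = 0.000374), and ABT-317 alone lowered it (log2 −0.44, SE 0.053, adjusted p = 0.0144). The last call ended without the block (adjusted p = 0.122) and with UMIs per barcode (adjusted p = 0.0513).

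CD38, which is induced on activated macrophages, was at 0.682 and 0.695 in Isotype, 2.24 and 1.75 in CPI, 0.858 and 0.957 in CPI + ABT-317, and 0.621 and 0.726 in Isotype + ABT-317. It was higher in CPI by 1.54 (log2, SE 0.15, adjusted p = 0.00364) and lower in CPI + ABT-317 than in CPI (log2 −1.14, adjusted p = 0.0089). One barcode held 22.1% of its UMIs in CPI reaction 1. PD-L1, the interferon-inducible ligand of PD-1, was at 1.11 and 1.14 in Isotype, 1.52 and 1.54 in CPI, 1.41 and 1.5 in CPI + ABT-317, and 1.1 and 1.13 in Isotype + ABT-317. It rose with CPI (log2 0.45, SE 0.025, adjusted p = 0.000587), and its difference between CPI + ABT-317 and CPI did not pass (log2 −0.07, adjusted p = 0.0842). PD-L1 and class II MHC, both higher in CPI macrophage-like sums, thus gave different values for the contrast with added ABT-317.

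**Figure D3:**
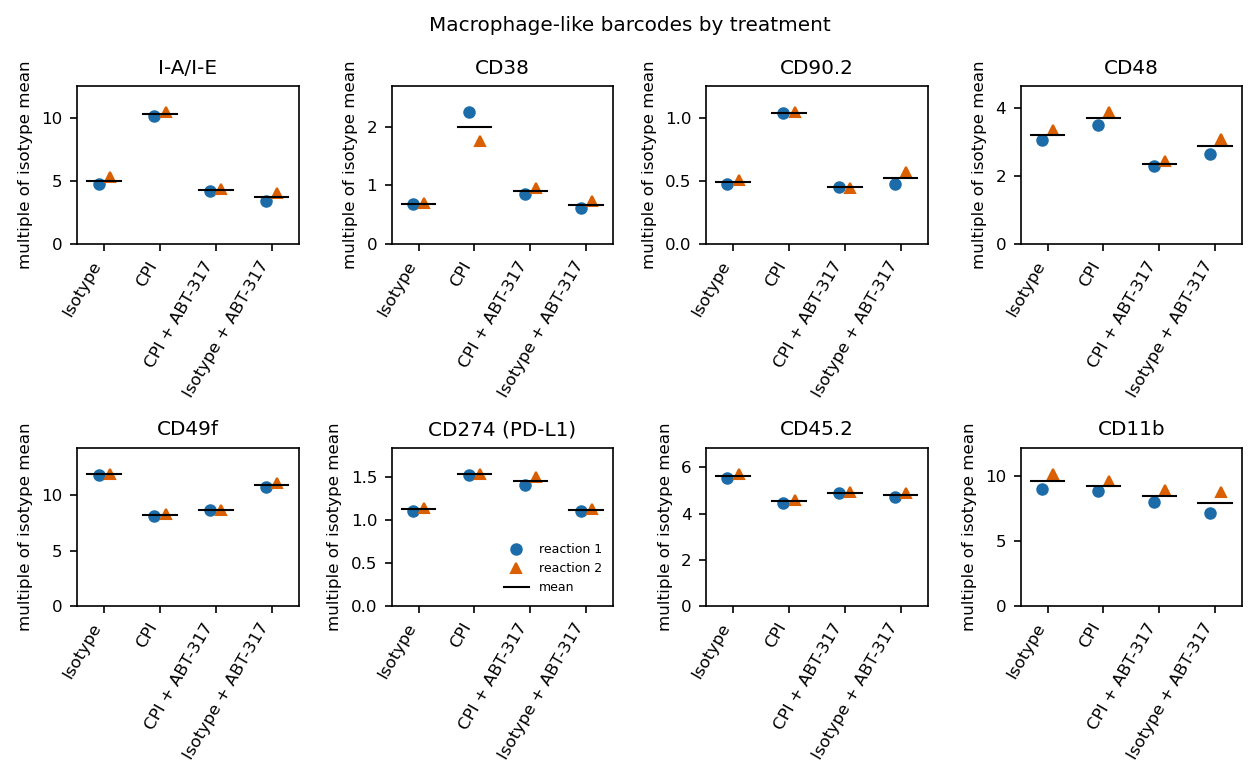
Levels of 8 antibodies in macrophage-like barcodes (multiple of the isotype mean, y axes) by treatment (x axes), with 1 point per reaction and a bar at the mean of both. I-A/I-E lies at 4.75 and 5.30 in Isotype, at 10.1 and 10.4 in CPI, and at 4.19 and 4.39 with CPI + ABT-317, while CD49f is lower in both CPI groups than in Isotype.

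Among integrins and adhesion proteins, 4 of 13 were lower in CPI than in Isotype and none was higher, against 10 lower and 14 higher of all 113. In CPI + ABT-317, 3 were higher and 1 was lower than in CPI, against 10 and 21 of all 113. CD49f was at 11.9 and 12.0 in Isotype, 8.14 and 8.33 in CPI, 8.65 and 8.72 in CPI + ABT-317, and 10.8 and 11.2 in Isotype + ABT-317. It was lower in CPI (log2 −0.53, SE 0.014, adjusted p = 8.5e-05), and adding ABT-317 moved it by only 0.08 (adjusted p = 0.0192). CD29 was also lower in CPI (3.35 and 3.84 against 2.66 and 2.84, log2 −0.38). CD11a was at 0.935 and 1.05 in Isotype, 0.896 and 1.01 in CPI, 1.23 and 1.37 in CPI + ABT-317, and 0.825 and 0.944 in Isotype + ABT-317, so that the CPI + ABT-317 sums lay above all others (log2 0.44 against CPI, SE 0.017, adjusted p = 0.000374). ABT-317 without CPI lowered CD11a (log2 −0.16), the opposite direction. Without the block the increases of CD49f (adjusted p = 0.0861) and CD11a (adjusted p = 0.0501) with added ABT-317 did not pass, nor did CD29 in CPI (adjusted p = 0.13).

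The tetraspanin CD9 and CD48 followed CPI in the same direction as class II MHC. CD9 was at 5.38 and 5.79 in Isotype, 7.11 and 7.48 in CPI, 4.85 and 4.93 in CPI + ABT-317, and 5.74 and 6.70 in Isotype + ABT-317 (log2 0.39 and −0.58 in the first 2 contrasts). CD48 was at 3.06 and 3.35, 3.5 and 3.86, 2.28 and 2.43, and 2.64 and 3.09 in the same order (log2 0.20 and −0.64), so that CPI + ABT-317 lay below Isotype. Both CD45 antibodies were lower in CPI (CD45 log2 −0.30, CD45.2 −0.31) and in Isotype + ABT-317 (−0.34 and −0.23) than in Isotype. CD11b, at 9.01 and 10.2 in Isotype and 7.17 and 8.75 in Isotype + ABT-317, was lower with ABT-317 alone (log2 −0.27, adjusted p = 0.0267). The adhesion receptor CD44 was also lower (log2 −0.21).

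Several antibodies to costimulatory and lineage proteins did not pass between CPI and Isotype in macrophage-like sums. Between CPI and Isotype the log2 differences were 0.04 for CD86, 0.02 for CD40, −0.03 for F4/80, −0.05 for CD11c, and −0.02 for PD-1, none of which passed the test. PD-1 was higher in CPI + ABT-317 than in CPI (log2 0.07, adjusted p = 0.0214), but not without the block (adjusted p = 0.083). With ABT-317 alone, 3 of 14 myeloid antibodies were lower, against 9 of all 113, namely CD11b, CD11c (log2 −0.15, adjusted p = 0.0424), and the signal regulatory protein CD172a (log2 −0.15, adjusted p = 0.0267). Of the 9 calls with ABT-317 alone, 1 (CD45.2) was made without the block and none with UMIs per barcode. CD54 (ICAM-1) had a fitted log2 difference of 1.92 that did not pass (adjusted p = 0.227), and its CPI sum of reaction 2 stood at 8.38 with 89.2% of the UMIs in 1 barcode. Without the top 1% of barcodes that sum was at 0.93.

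T cell antibodies also moved in macrophage-like sums. Of the 15 in the T cell receptor and coreceptor list, 4 were higher in CPI and 6 were lower in CPI + ABT-317 than in CPI, with list medians of 0.03 and −0.06. Over all 113 these were 14 higher and 21 lower, with medians of 0.01 and −0.04. CD90.2 was at 0.477 and 0.507 in Isotype, 1.03 and 1.04 in CPI, 0.449 and 0.446 in CPI + ABT-317, and 0.474 and 0.572 in Isotype + ABT-317 (log2 1.08 and −1.21), and CD5 was at 0.626 and 0.594, 0.832 and 1.00, 0.588 and 0.55, and 0.615 and 0.602 (log2 0.59 and −0.69). CD2 (0.50 and −0.46) moved in the same way.

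RNA of T cells moved with these antibodies. All 9 T list genes were higher in both CPI macrophage-like sums than in any other sum, none was at 0, and the list summed to 0.986 and 1.66 per 10000 gene UMIs in CPI against 0.0938 to 0.217 elsewhere. The endothelial list summed to 0.854 and 0.619 against 0.14 to 0.396, with 6 of 8 genes higher in both CPI sums. The cDC2 list (0.349 and 0.332 against 0.0514 to 0.135), the mregDC list of mature dendritic cells (0.629 and 0.601 against 0.16 to 0.406), and the neutrophil list (3.63 and 3.14 against 1.47 to 3.00) also summed higher in CPI, whereas the cDC1 list summed lower (0.955 and 1.05 against 1.25 to 2.07), and the 3 DC lists together were at 1.93 and 1.98 against 1.79 to 2.31. The comparison was therefore repeated on macrophage-like barcodes with no UMI of the T or DC lists, which were 64.3% and 59.6% of the CPI barcodes (270 and 187). They were 44.9% and 46.7% in CPI + ABT-317, where barcodes were deeper (median 3875 and 4479 gene UMIs against 2188 and 2528 in CPI). A shallow barcode more often lacks such UMIs, and the part of depth in the restricted values was not tested. In the restricted barcodes the log2 difference of CD5 between CPI and Isotype was 0.09 (adjusted p = 0.162) and that of CD90.2 was 0.81 (adjusted p = 0.0513), and both calls ended.

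In the same restricted barcodes, class II MHC and CD38 differed more in both contrasts that include CPI, and class II MHC differed less with ABT-317 alone. I-A/I-E was at 4.00 and 4.48 in Isotype, 10.6 and 11.8 in CPI, 3.25 and 3.55 in CPI + ABT-317, and 3.19 and 3.77 in Isotype + ABT-317, with log2 differences of 1.39, −1.71, and −0.29. CD38 was at 2.59 and 1.93 in CPI (log2 1.78 and −1.27). The number of calls in the 3 contrasts was 18, 30, and 6.

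List-negative barcodes were compared in the same way, with only 249 and 121 barcodes in CPI. CPI and Isotype differed in 14 antibodies (12.4%), 12 of them higher in CPI. With fewer than 2500 genes per barcode 9 were called, 4 higher and 5 lower, and with TMM scaling 56, 30 higher and 26 lower. CPI + ABT-317 and CPI differed in 16 (14.2%), all lower in CPI + ABT-317, whereas with fewer than 2500 genes 14 were called, 9 of them higher. In that contrast the panel median was −0.15, and the isotype control MOPC-173 was at 2.35 in CPI + ABT-317 reaction 2, against 0.875 to 0.902 in the other 7 sums, because 1 barcode held 69.4% of its UMIs. Its UMIs enter the library size of that sum and lower the levels given for it. With TMM scaling 56 antibodies were called, 27 of them higher, and 15 of the 16 were still lower. Without the top 1% of barcodes, where MOPC-173 was at 0.884, 54 were called, 21 of them higher, and 14 of the 16 were still lower. Isotype + ABT-317 and Isotype differed in 0 (0%) by edgeR, with 2 at an unadjusted p under 0.05 and 1 called by DESeq2.

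CD90.2 in list-negative sums was at 0.478 and 0.426 in Isotype, 2.53 and 4.01 in CPI, 0.45 and 0.336 in CPI + ABT-317, and 0.471 and 0.493 in Isotype + ABT-317, with log2 differences of 2.85 (SE 0.15) and −3.05 (SE 0.15). Without the top 1% of barcodes the first was 2.92 (adjusted p = 0.0015). Its RNA, Thy1, was at 20.8 and 38.2 CPM in CPI and at 0.23 to 0.66 CPM elsewhere. I-A/I-E was at 1.05 and 0.976 in Isotype, 3.00 and 3.06 in CPI, 0.905 and 0.635 in CPI + ABT-317, and 0.909 and 0.934 in Isotype + ABT-317 (log2 1.59 and −1.99), and in barcodes with fewer than 2500 genes the first was 0.968 (adjusted p = 0.0842). Both antibodies separated the CPI sums from all others.

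CD71 fell with CPI, from 5.73 and 6.02 in Isotype to 3.94 and 3.26 (log2 −0.71, SE 0.13, adjusted p = 9.02e-07). This edgeR fit shares the spread over the panel, so the p-value does not rest on the spread of CD71 alone. CD71 was at 4.38 and 3.94 in CPI + ABT-317 and 6.91 and 7.75 in Isotype + ABT-317. CD63 also fell (log2 −0.47). Other calls with CPI included CD48 (0.97 and 0.94 against 1.60 and 1.39, log2 0.64), CD54 (0.62), CD24 (0.60), CD38 (0.54), CD31 (0.41), CD2 (0.40), CD61 (0.39), and CD49a (0.34), all higher. One barcode held 33.1% of the CD31 UMIs of CPI reaction 2, and without the top 1% of barcodes the log2 difference of CD31 was 0.19 (adjusted p = 0.312). CD11b was at 1.60 and 1.48 in Isotype and 2.92 and 2.51 in CPI (log2 0.82), but its difference was −0.04 when hashtags were called by fits of 2 components and 0.21 (adjusted p = 0.765) in barcodes with fewer than 2500 genes.

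Several marker lists of other cell types stood higher in the CPI sums of list-negative barcodes. The T list summed to 0.0533 and 0.066 per 10000 gene UMIs against 0.0024 to 0.00433 elsewhere, with 4 of 9 genes higher in both CPI sums and Cd3d, Cd3e, and Cd3g at 0 there. The class definition allows no UMI of these 3 genes, and at most 1 detected gene of the T list and 1 of the endothelial list per barcode. The endothelial list summed to 0.236 and 0.405 against 0.103 to 0.143, with 4 of 8 genes higher and Emcn and Cldn5 at 0. The B list summed to 1.02 and 1.59 against 0.286 to 0.443, with 1 of 6 genes higher in both CPI sums and Cd79b and Ms4a1 among those at 0. The cDC2 list summed to 0.073 and 0.132 against 0.0311 to 0.0607, with 2 of 5 genes higher and Clec10a at 0, and the NK list to 0.0393 and 0.0283 against 0.01 to 0.0169, with 2 of 7 higher and Ncr1, Klrb1c, and Klra8 at 0. The ranges of the remaining lists overlapped. The macrophage list summed to 0.949 and 0.537 against 0.393 to 0.888, with 1 of 11 higher, and the fibroblast list to 23.5 and 23.0 against 14.7 to 24.2, with 4 of 8 higher. Their part in the CPI values was not tested.

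The RNA of panel targets was tested in the same barcodes and contrasts by edgeR's quasi-likelihood test with Benjamini-Hochberg adjustment over all genes tested, 10401 in macrophage-like and 15965 in list-negative sums. CPI barcodes were the shallowest in both classes, with median gene UMIs of 2188 and 2528 against 3308 to 4685 in macrophage-like and 13285 and 14290 against 17723 to 28304 in list-negative barcodes, and the part of depth in the RNA differences was not tested. In macrophage-like sums, 55 of 76 target genes differed between CPI and Isotype (background over all genes 24.8%), 44 between CPI + ABT-317 and CPI (15.3%), and 5 between Isotype + ABT-317 and Isotype (1.38%). In list-negative sums the numbers were 40 of 73 (24.2%), 37 (18.2%), and 18 (23.7%). Without the barcodes that held T or DC list UMIs, 30 and 23 of the 52 target genes tested in macrophage-like sums were called in the first 2 contrasts (57.7% and 44.2%, against a background of 25.4% and 12.9% over all genes). In the main sums the shares of target genes were 72.4% and 57.9%.

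Many targets had a call in antibody or RNA but not in both, and where both were called most went the same way. In macrophage-like sums, both were called for 12 of 74 antibodies in CPI minus Isotype, with the same direction in 11 and the opposite in CD44, while 12 had the antibody alone called and 38 the RNA alone. In CPI + ABT-317 minus CPI these numbers were 9 and 24, and both were called for 18, with the opposite direction in PD-1, CD44, I-A/I-E, and CD127, the IL-7 receptor chain. In Isotype + ABT-317 minus Isotype, I-A/I-E was the 1 antibody with both called, and both were lower. Without the block neither call remained, with 0 of 76 target genes called. In list-negative sums both were called for 9 antibodies with CPI, 8 in the same direction, and for 8 with CPI + ABT-317, all in the same direction. The antibody alone was called for 4 and 6, and the RNA alone for 32 and 29.

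Class II MHC differed between protein and RNA in the contrast with added ABT-317. H2-Ab1, the I-A beta chain gene, was at 1874 and 2237 CPM in Isotype, 2974 and 3035 in CPI, 3166 and 3560 in CPI + ABT-317, and 1278 and 1451 in Isotype + ABT-317. Its log2 difference was 0.48 for CPI against Isotype and 0.24 for CPI + ABT-317 against CPI (adjusted p = 0.0227), where the antibody was lower by 1.26. H2-Aa, the alpha chain gene, had 0.47 and 0.04 (adjusted p = 0.766) in these contrasts. In the barcodes without T or DC list UMIs the second contrast was −0.27 for H2-Ab1 (adjusted p = 0.0173) and −0.45 for H2-Aa, the direction of the antibody, so the sign of the RNA difference turned with the barcodes used.

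For other antigens of the macrophage-like contrasts, the RNA ranged from parallel to absent. Cd38 was at 10.2 and 7.50 CPM in Isotype, 46.6 and 52.9 in CPI, 24.7 and 24.9 in CPI + ABT-317, and 8.82 and 7.67 in Isotype + ABT-317 (log2 2.41 and −0.91), the order of the antibody. Itga6, the gene of CD49f, had log2 −1.46 in CPI and 0.97 with added ABT-317, larger than the antibody in both. Itgal, the gene of CD11a, had 1.28 in CPI + ABT-317 against CPI. Cd274, the gene of PD-L1, had −0.09 in CPI against Isotype, where the antibody had 0.45, and it had 0.56 in CPI + ABT-317 against CPI (adjusted p = 0.0013), where the antibody did not pass. Cd48 (−0.07 and 0.04) and Cd9 (0.04 and 0.24) did not show the antibody differences.

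In list-negative sums the 1 target with opposite calls was CD71, whose antibody was lower with CPI by 0.71 while its gene Tfrc had a log2 difference of 1.09. The CPI sums of this class are the smallest of the treatment contrasts and, as given above, hold more RNA of several other cell types than the rest.

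**Figure D4:**
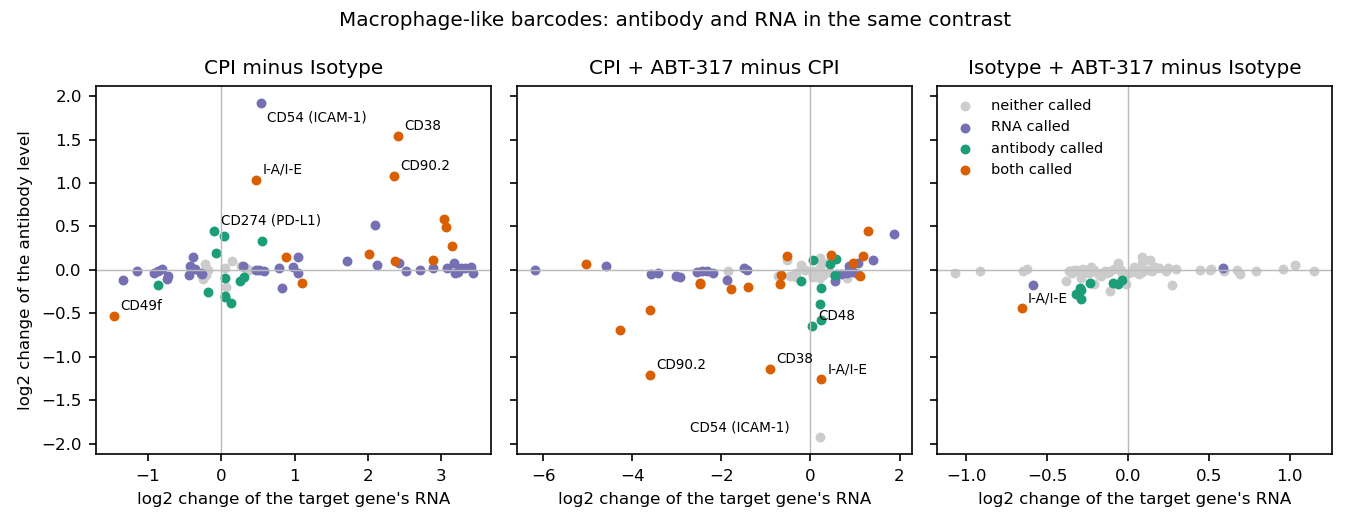
Each point is 1 antibody in macrophage-like sums, with the log2 change of its gene on the x axis and that of the antibody on the y axis, for CPI minus Isotype, CPI + ABT-317 minus CPI, and Isotype + ABT-317 minus Isotype, colored by whether the antibody, the RNA, both, or neither were called. I-A/I-E lies at 0.48 (RNA) and 1.03 (antibody) in the first panel and at 0.24 and −1.26 in the second, and the outlying CD54 is the value that rests on 1 barcode.

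Over the 6 classes, antibody levels and RNA of the same gene were compared by correlation, as a description, since the 6 points share reactions and depth. Of the 108 antibodies with a gene, 87 had it at 10 CPM or more in some class. Their median Pearson correlation of log2 levels was 0.696 and their median Spearman correlation was 0.543. For the 33 antibodies that varied 2-fold or more the medians were 0.867 and 0.714, and in 22 of them the highest class was the same for antibody and RNA. For the 54 that varied less, the medians were 0.638 and 0.457, and the highest class was the same in 26. Some target genes were on the marker lists that set the classes, among them Cd2, Trbc1, Trbc2, Pecam1, Adgre1, Csf1r, Itgae, and Mgl2. The gates set part of the RNA difference of these genes, which enter the medians.

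Among these 87, the highest Pearson correlations were those of CD90.2 (0.984), CD8b (0.969), CD2 (0.968), CD48 (0.965), and CD11a (0.960). Those of CD38 (0.934), CD31 (0.919), CD11b (0.878), and I-A/I-E (0.872) were also high. Spearman correlations in the same order were 0.943, 0.319, 0.714, 0.714, 0.943, 0.714, −0.086, 0.886, and 0.943. For CD8b, CD31, CD2, and CD38 the Pearson value rested mainly on 1 high class. Cd2 was at 293 and 315 CPM in T-like sums and no more than 6.93 elsewhere. Cd38 was at 93.5 and 80.7 CPM in endothelial-like sums and no more than 13.5 elsewhere. Thy1, the gene of CD90.2, was at 357 and 497 CPM in T-like and 196 and 248 CPM in fibroblast-like sums, the same classes in which the antibody was high. H2-Ab1 was at 5.09e3 and 6.28e3 CPM in DC-like and 2.00e3 and 2.31e3 CPM in macrophage-like sums, the order of I-A/I-E.

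The lowest Pearson correlations among the 87 were those of CD41 (−0.526), CD301b (−0.521), CD81 (−0.498), Tim-3 (−0.484), and CD169 (−0.399). For CD71, the antibody with the largest fold in list-negative barcodes, the Pearson correlation was 0.695 (Spearman 0.257). Tfrc was at 34.6 and 30.1 CPM in list-negative sums against 4.15 to 26.1 elsewhere, a smaller difference than that of the protein. CD98 (0.091) and CD155 (−0.142), also high in list-negative barcodes, had little or no relation with RNA over classes. CD4 had 0.032, with the single-barcode value of fibroblast-like reaction 2 among its points.

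In 73 antibodies the RNA varied at least 8-fold between classes, and in 39 of these the antibody varied less than 1.5-fold. CD3, TCR beta, PD-1, CD115, CD88, Tim-3, and LAG-3 were among them. Cd3e was at 460 and 620 CPM in T-like sums and no more than 13.9 elsewhere. The CD3 antibody was at 7.73 to 8.97 elsewhere, a range that includes both T-like sums. The T-like gate needed a UMI of Cd3d, Cd3e, or Cd3g and the list-negative gate excluded them. This RNA difference was thus set in part by the classes. Pdcd1 was at 112 and 209 CPM in T-like sums and no more than 6.93 elsewhere. Pearson's r, which ignores the size of a change, was still 0.805 for CD3 and 0.796 for PD-1.

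**Figure D5:**
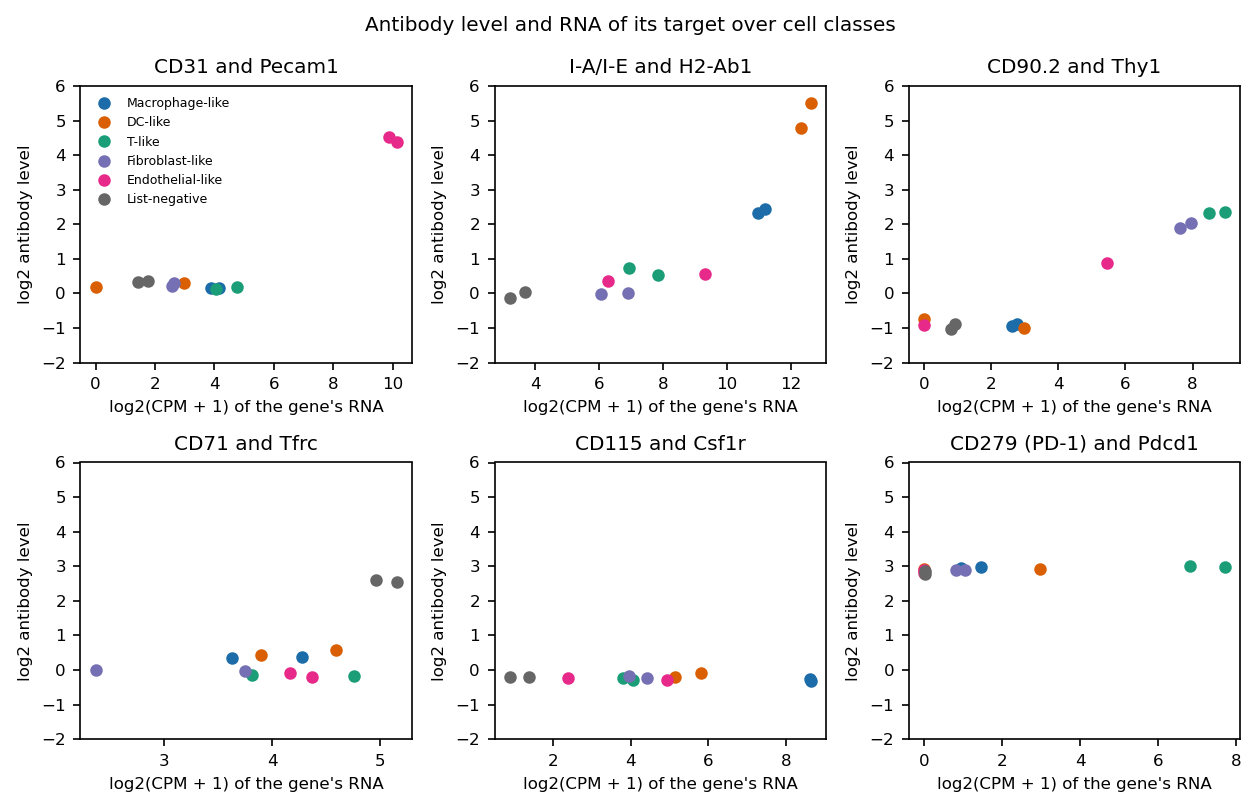
Log2 antibody level relative to the isotype mean (y axes) against log2(CPM + 1) of the gene (x axes) for 6 antibodies, with a color per class and 1 point per reaction. I-A/I-E and CD90.2 climb with their RNA. CD31 is high in endothelial-like sums only and CD71 in list-negative sums only. CD115 and PD-1 stay level over the whole range of Csf1r and Pdcd1.

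Within a class, barcodes with at least 1 UMI of the target gene were set against barcodes with none. The antibody level was at least 1.2 times higher with the RNA in both reactions for 14 of 75 antibodies in macrophage-like, 6 of 48 in T-like, 7 of 34 in fibroblast-like, and 22 of 65 in list-negative barcodes, and for none of these was the ratio 0.83 or lower in both. The 14 include the T cell antigens CD90.2, CD5, CD8b, CD2, CD8a, and ICOS, whose RNA was found in few macrophage-like barcodes, such as 29 and 34 for Cd5. CD90.2 and CD8b are also among the 22, with Cd8b1 RNA in 24 and 21 list-negative barcodes. No doublet caller was run, and whether such barcodes held more than 1 cell was not tested. In macrophage-like barcodes I-A/I-E was at 5.35 with RNA of its genes and 1.73 without in reaction 1, and at 5.84 and 1.76 in reaction 2. CD90.2 was at 3.02 and 2.37 in the 74 and 83 macrophage-like barcodes with Thy1 and at 0.464 and 0.479 in the rest, close to the class as a whole.

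The same held for antigens of other classes. In T-like barcodes CD5 was at 6.5 with Cd5 RNA and 3.04 without in reaction 1 (5.08 and 2.64 in reaction 2), and CD8b was at 1.47 and 0.798 (1.48 and 0.759). In fibroblast-like barcodes CD55 was at 2.53 and 1.32 (2.57 and 1.65). In list-negative barcodes Ly-6A/E was at 8.63 and 3.25 (9.47 and 2.59), and CD71 was at 7.90 and 4.35 (7.79 and 4.63). A deeper barcode is more likely to hold a UMI of any gene, and the part of depth in these values was not tested.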

How the data were processed

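The authors deposited UMI counts per gene, hashtag, and antibody for each 10x 5′ reaction, without normalization. The submitters' processing notes name Cell Ranger 3.1.0, GRCm38, and mm10, the study's methods name Cell Ranger 5 and 7, and the matrix headers name Cell Ranger 8.0.1. Which of these made the antibody counts is not given in the sources used here, and no reference of this build was used. Coordinates are not given.

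Barcodes with at least 200 genes and under 10% mitochondrial counts were kept without an upper gene limit. A treatment was assigned where 1 hashtag of the deposited key led the next by 1.5 on the log2 scale, after subtraction of the 10th percentile, which left 37.7% of passing barcodes unassigned. Classes needed 3 markers of their list (DC subsets 2 for cDC1 and cDC2) and a minimum of list UMIs per 10000, such as 64 for macrophages, 4 for T cells, 256 for fibroblasts, and 8 for endothelium, with ceilings on macrophage and fibroblast UMIs. Barcodes that met several lists were left out, and no doublet caller was run. List-negative barcodes met no list, had at most 1 T and 1 endothelial gene detected, and had under 4 macrophage and 128 fibroblast UMIs per 10000. This class stood in for a planned tumor-like class, and the planned treatment contrasts in T-like barcodes were not run because almost all were from CPI. Neutrophil-like barcodes were under the minimum of 20 per sum in reaction 2, and monocyte-like, NK-like, and B-like barcodes in both.

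Sums were fitted with edgeR 4.0.16 in R 4.3.3 (glmQLFit, glmQLFTest, filterByExpr), with reaction as a block, because the replicate number is the reaction that same-numbered sums share. Deviations of same-numbered sums correlated at 0.18 to 0.69 over 6 pairs of macrophage-like treatments, 0.08 to 0.82 over 6 list-negative pairs, and −0.06 to 0.60 over 15 pairs of classes. Library sizes were isotype totals for antibodies and TMM for RNA, and CPM had a pseudocount of 1 before log2. DESeq2 1.42.0 served as an alternative. The fits were tested on simulated counts. Other steps used Python 3.11.15, NumPy 2.4.6, SciPy 1.17.1, and pandas 2.3.3. Alternatives changed the library size, tool, block, gene limit, top 1% of barcodes, filter, hashtag calls, gate, and reactions. The 2-component hashtag calls, the CPI-only class comparison, the macrophage-like barcodes without T or DC list UMIs, and the alternatives for differences between classes were chosen after seeing the data.

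Antibodies named were the 3 called with the largest fold per class, the 5 per treatment contrast, fixed controls, and the 5 highest and lowest Pearson correlations with RNA. Others were named after their values were seen. The members, lists, and classes were chosen with earlier results of these data known. Role lists for T cell activation, chemokine receptors, and other antibodies were added after the files were seen. An antibody that met the rule for naming is counted in the totals but is not reported here.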

Additional observations from a re-analysis of the deposited data

Results flagged for a closer look

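By a test of the difference itself (interaction term in edgeR, Benjamini-Hochberg adjusted over the panel), the change between treatments differed between macrophage-like and list-negative barcodes for 5 antibodies in CPI minus Isotype and for 11 in CPI + ABT-317 minus CPI. The values are the macrophage-like log2 change minus the list-negative log2 change. For CPI minus Isotype they were −1.77 for CD90.2 (adjusted p = 0.0015), −0.87 for CD11b (adjusted p = 0.0033), −0.63 for CD49f (adjusted p = 0.0034), 0.99 for CD38 (adjusted p = 0.0041), and 0.51 for CD63 (adjusted p = 0.01).

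For CPI + ABT-317 minus CPI all 11 were positive, and the list-negative panel median of this contrast was −0.15. They were 1.84 for CD90.2 and 1.05 for CD11b (both adjusted p = 0.00057), 0.83 for CD11a (adjusted p = 0.00083), 0.85 for CD24 and 0.73 for I-A/I-E (both adjusted p = 0.015), and 0.51 for CD73 (adjusted p = 0.022). Smaller values were found for CD61 (0.53), CD43 (0.46), CD44 (0.44), and CD55 (0.43), each with an adjusted p of 0.035, and for CD371 (0.45, adjusted p = 0.037).

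Without the top 1% of barcodes, 62 and 69 antibodies differed in these contrasts (30 positive in each), among them all 5 and 10 of the 11, but CD24 was at −0.05 (adjusted p = 0.829). CD11b was −0.02 (adjusted p = 0.961) and 0.30 (adjusted p = 0.203) with 2-component hashtag calls and −0.22 (adjusted p = 0.733) and 0.20 (adjusted p = 0.681) under 2500 genes, so its difference was lost in both. I-A/I-E was −0.50 (adjusted p = 0.0911) with 2-component calls and 0.34 (adjusted p = 0.366) under 2500 genes. With 2-component calls 4 of the 5 and 5 of the 11 were called in the same direction, and under 2500 genes 4 and 4. In the CPI list-negative sums of 249 and 121 barcodes, RNA of the T, endothelial, B, NK, and cDC2 lists stood higher than in the other sums, and its part in these differences was not tested.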

How the results depend on the processing

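Counts of antibodies called in treatment contrasts depended on the fit. Class calls needed a 2-fold difference and treatment calls had no minimum fold, so their stability cannot be compared. At an unadjusted p under 0.05 by edgeR, class contrasts gave 49 to 68 antibodies in the main fit and 88 to 108 with UMIs per barcode. For macrophage-like CPI minus Isotype (24), the counts were 15 per barcode, 39 with DESeq2, and 49 without the top 1% of barcodes. For CPI + ABT-317 minus CPI (31) they were 90 per barcode (82 higher), 64 with DESeq2, 77 without the top 1%, and 49 with 2-component hashtag calls, and TMM gave 33 (15 higher). For Isotype + ABT-317 minus Isotype (9) they were 0 per barcode, 19 with DESeq2, and 20 without the top 1%. For list-negative CPI minus Isotype (14) they were 56 with TMM (30 higher), 110 per barcode (108 higher), 9 under 2500 genes (4 higher), and 52 without the top 1% (31 higher). For CPI + ABT-317 minus CPI (16) they were 56 with TMM (27 higher), 108 per barcode (2 higher), 25 with DESeq2, 14 under 2500 genes (9 higher), and 54 without the top 1% (21 higher). For the contrast with 0 they were 4 with TMM, 7 per barcode, 1 with DESeq2, and 3 without the top 1%. UMIs per barcode moved the panel median by −0.38 to 0.28 between classes, by 0.02, 0.21, and 0.05 in macrophage-like contrasts, and by 0.29, −0.11, and 0.13 in list-negative contrasts. TMM and leaving out the top 1% moved it by 0.15 and 0.14 in list-negative CPI + ABT-317 minus CPI.

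With no replicate block, macrophage-like contrasts gave 13 (10 higher), 14 (1 higher), and 1 antibodies and list-negative contrasts 14, 18, and 0, and target genes were 0 in macrophage-like Isotype + ABT-317 and 26, 19, and 0 in list-negative contrasts. Over all genes the shares called were 0.0385%, 8.37%, 4.28%, and 0% in these 4. Target genes were also 30 and 23 without T or DC list UMIs (25.4% and 12.9% of all genes), 13, 11, and 3 of 30 tested in list-negative barcodes under 2500 genes (8.36%, 7.61%, and 0.083%), and 14 of 109 without a filter in macrophage-like Isotype + ABT-317 (1.54%).

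Antibodies called higher were 1 in macrophage-like barcodes under 2500 genes, 3 in fibroblast-like barcodes both without the top 1% and with CPI barcodes alone, and 2 per barcode in list-negative barcodes. Leaving out either reaction gave folds only, with 3 to 3 (macrophage-like), 4 to 6 (DC-like), 6 to 6 (T-like), 4 to 5 (fibroblast-like), 5 to 7 (endothelial-like), and 3 to 5 (list-negative) antibodies, and a median antibody to RNA correlation of 0.634 to 0.717. Among antibodies named by the fixed rule, signs reversed for CD4 in fibroblast-like barcodes (−0.11 without the top 1%, −0.20 to 2.84 with 1 reaction left out) and CD11b in list-negative CPI minus Isotype (−0.0432 with 2-component calls), and others are given beside their results. For CD4 1 barcode held most UMIs, and for CD11b the cause was not tested. Of 473 alternatives of named values, 410 kept direction and call, 23 lost the call, and 37 moved by more than the spread between reactions. DC-like and endothelial-like sums rest on 27 to 59 barcodes, which limits their precision.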

Other observations

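Neutrophil-like barcodes were too few for the class comparison with a leading hashtag (32 and 13), but over all barcodes whatever their hashtag there were 67 and 31. In these, Ly-6G was at 5.1 and 6.49 times the isotype mean, against 1.89 to 2.12 in the other classes, a log2 difference of 1.54 by edgeR (adjusted p = 6.69e-07). By the same test CD11b (log2 2.00, adjusted p = 1.73e-06) and CD24 (log2 2.03, adjusted p = 6.5e-06) were higher. CD11b was at 9.15 and 11.3 but at up to 9.78 in the other classes, and CD24 was at 2.69 and 3.14. CD90.2 (log2 −1.45) and Ly-6A/E (−1.06) were lower. The Ly-6G antibody, level across the 6 main classes, was thus high in the 1 class defined by neutrophil RNA.

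The 2 reactions gave close values for most antibodies. The median absolute log2 difference between reactions ran from 0.0274 in fibroblast-like to 0.0944 in DC-like sums. Antibodies that differed by more than 0.5 numbered 1 in macrophage-like, 8 in DC-like, 0 in T-like, 2 in fibroblast-like, 6 in endothelial-like, and 1 in list-negative sums. Single barcodes also reached isotype controls, since 1 barcode held 69.4% of the MOPC-173 UMIs of list-negative CPI + ABT-317 barcodes in reaction 2.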
